A study of Drosophila melanogaster with 24 samples.

Results

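The genes examined here are 36 *Drosophila* genes of DNA replication and S phase, chosen by name with earlier results of these data known. They encode the subunits of the origin recognition complex (ORC), the licensing factors, the MCM helicase, its activators, and the sliding clamp and its loader. The others encode a flap nuclease, enzymes of nucleotide supply, the regulators of S phase entry and a checkpoint adaptor. Of the 36, 35 were listed on all 4 days, and *lat* (latheo, an ORC subunit) was listed on none, out of 13395 genes listed on at least 1 day. RNA-seq compared testes in which the germline driver *nos-Gal4* expressed an RNAi construct against *Set1* (*Set1* KD) with testes in which the same driver expressed an RNAi construct against mCherry, a fluorescent protein that flies lack (Ctrl KD). Set1 is a histone H3K4 methyltransferase, and the question asked of these genes was how transcripts of the replication machinery differ in testes in which its germline knockdown was driven. Crosses were kept at 18°C, and males of both groups were aged at 25°C for 0, 1, 3 or 5 days after eclosion. Each group had 3 libraries on each day, 24 in all. Each library pooled about 15 pairs of testes that were desheathed, dissociated and filtered.

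Eukaryotic DNA is copied once per cell cycle. ORC marks the places where copying can start, and Cdc6 and Cdt1 (encoded by *dup* in the fly) then load the MCM ring, a step that geminin blocks by binding Cdt1. GINS and Mcm10 help turn the loaded ring into a working helicase, the PCNA clamp, set on DNA by the replication factor C (RfC) loader, holds polymerases in place, and ribonucleotide reductase and thymidylate synthase supply the building blocks. E2f1 with its partner Dp activates many genes of S phase, Rbf restrains it, and Cyclin E drives entry into S phase. In the testis, germline stem cells, dividing spermatogonia, young spermatocytes before meiosis and the somatic cyst stem cells copy their DNA, whereas later germ cells and the muscle sheath do not.

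All values come from a DESeq2 comparison of the 6 libraries of each day that the authors ran. It gives each gene a mean normalized count, a log2 fold change (positive where *Set1* KD is higher) and its standard error (SE), and a p-value adjusted over all genes of that day. The values used here are not per library. Library depths are therefore unknown, and the error of each log2 fold change is this SE, from 3 libraries per group. The level of a group was derived from the mean count and the fold change, and carries no error of its own. A gene is said to have risen or fallen where its adjusted p was under 0.05. A stricter rule, which the authors applied, also required the log2 fold change to reach 1.3 in either direction, or 2.46-fold.

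In *Set1* KD testes, replication genes moved in both directions. Of the 35, 18 were higher on at least 1 day and lower on none, 10 were lower on at least 1 day and higher on none, 7 passed the test on no day, and 0 rose on one day and fell on another. The log2 fold change itself was above 0 on all 4 days for 16 members and below 0 on all 4 days for 9. The remaining members, such as *Orc2* and *RfC38*, changed sign between days. These patterns over days were not counted over all genes. On single days, 30.4%, 32.8%, 56.9% and 49.9% of all genes tested passed the test in either direction (days 0, 1, 3 and 5). The genes that rose most were *Claspin*, *RnrL*, *Cdc6*, *Orc1* and *Psf2*, and those that fell most were *Mcm10* and *Orc4*. At day 0, 4 members were higher (11.4%) where 14.7% of all genes tested were, and 8 were lower (22.9%) where 15.7% of all genes were. At day 1, 10 were higher (28.6%, against 15.2% of all genes) and 7 were lower (20%, against 17.6%). At day 3, 17 were higher (48.6%, against 28.9%) and 7 were lower (20%, against 28%). At day 5, 16 were higher (45.7%, against 24.4%) and 5 were lower (14.3%, against 25.6%). At this threshold, the share of members that rose was thus close to that of all genes at day 0 and above it at days 1, 3 and 5. Under the stricter rule it was not above it at day 1, where 1 member was higher beside 6.94% of all genes. All libraries are bulk RNA, in which fewer cells of a type and less RNA per cell cannot be told apart.

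**Figure D1:**
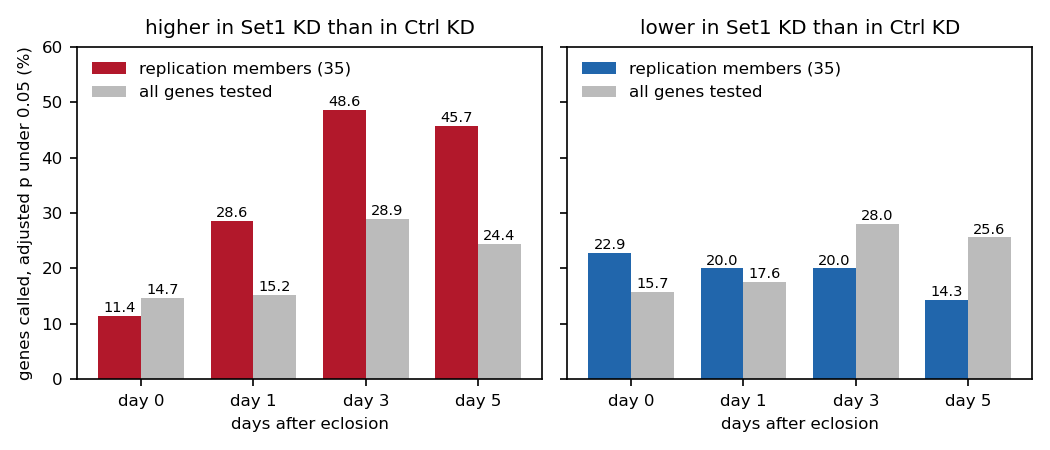
Bars give the percentage of genes whose adjusted p was under 0.05, higher (left panel) or lower (right panel) in *Set1* KD than in Ctrl KD testes, for the 35 replication members (coloured) and all genes tested (grey) on each day after eclosion. At this threshold, members rose more often than all genes from day 1 on, with 48.6% against 28.9% at day 3.

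The median log2 fold change of the 35 members was -0.03, -0.02, 0.38 and 0.47 at days 0, 1, 3 and 5, beside 0.02, -0.00, 0.03 and 0.00 over all genes tested, and 17, 17, 25 and 25 members had a log2 fold change above 0. Under the stricter rule, 0 members were higher and 2 lower at day 0 (*Mcm10* and *Orc4*), where 6.75% and 2.98% of all genes were. At day 1, 1 was higher (*Claspin*) and the same pair was lower, beside 6.94% and 3.27% of all genes. Day 3 had 6 higher (*Mcm3*, *Orc1*, *Cdc6*, *Psf2*, *RnrL* and *Claspin*) and 0 lower, beside 9.38% and 5.9% of all genes, and day 5 had 5 higher (those of day 3 but *Mcm3*) and 0 lower, beside 6.2% and 6.79%. In the deposited DESeq2 results, 7 and 5 members were lower at days 3 and 5 before this size was required.

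**Figure D2:**
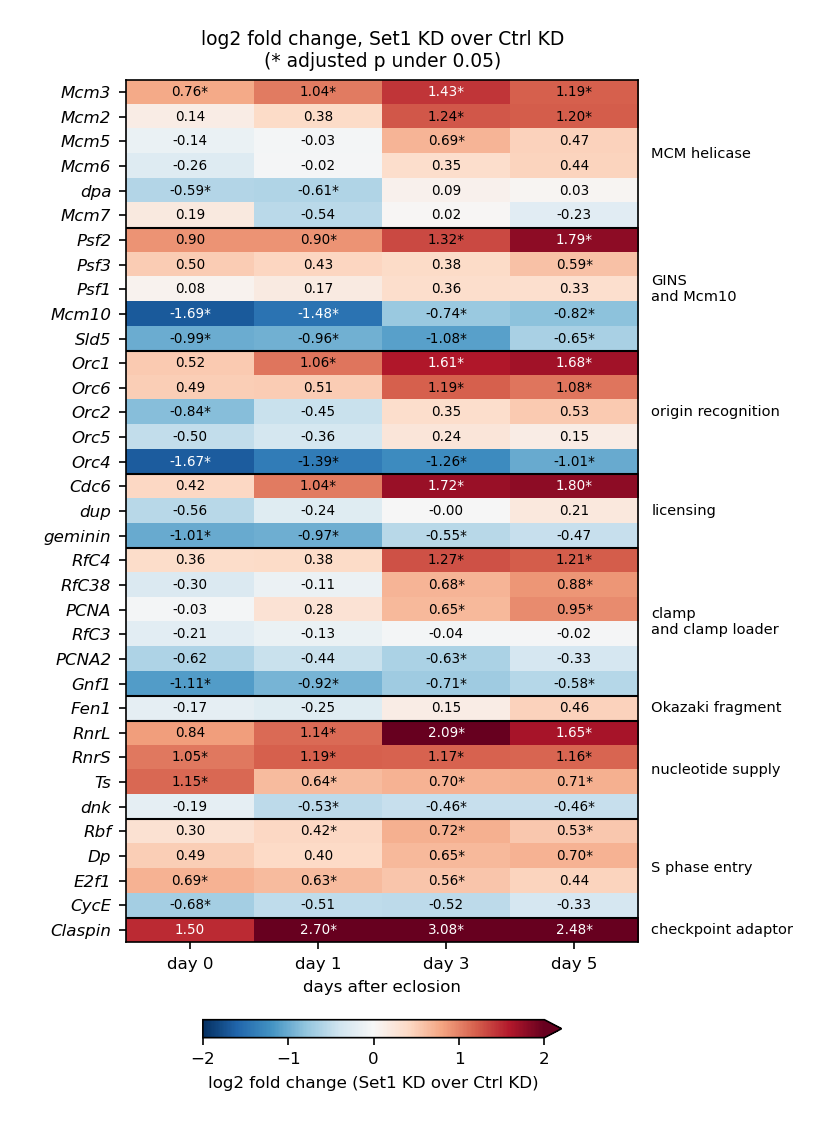
Each cell gives the log2 fold change (*Set1* KD over Ctrl KD) for 1 member (rows, grouped by role and ordered by the value at day 3) on 1 day after eclosion (columns), red for higher and blue for lower in *Set1* KD. Stars mark an adjusted p under 0.05, and *Claspin* at day 3 is the highest value (3.08) and *Mcm10* at day 0 the lowest (-1.69).

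The samples are labelled as germ cells, but they came from whole testes that were desheathed and dissociated, and markers of other cells were present. Summed levels of 8 early germ cell markers were 0.801 to 0.936 times as high in *Set1* KD as in Ctrl KD testes over the 4 days, those of 9 listed genes of the spermatocyte transcription program 0.573 to 0.746 times, and those of 12 late germ cell markers 0.553 to 0.747 times. The summed levels of the 5 cyst lineage markers stood at 0.900 to 0.969 times, those of the 5 hub markers at 0.623 to 0.744 times, those of the 4 muscle sheath markers at 0.711 to 1.25 times, and those of the 5 hemocyte markers at 1.45 to 2.41 times. Sums follow the most abundant markers. The median log2 fold change of the early germ cell markers was -0.21, -0.15, 0.32 and 0.10 at days 0, 1, 3 and 5. It was thus above 0 at days 3 and 5, where their sum was lower in *Set1* KD testes. For the hemocyte markers the median was 0.27, -0.19, 0.75 and 0.44, with 1 of 5 above 0 at day 1. Of the early germ cell markers, 1, 1, 4 and 2 rose and 2, 2, 3 and 2 fell at days 0, 1, 3 and 5. Of the spermatocyte genes, 4, 5, 7 and 3 of 9 fell and none rose, and of the late germ cell markers, 4, 6, 10 and 10 fell and none rose. Cyst lineage markers had 1, 2, 1 and 1 that rose and 0, 0, 1 and 1 that fell, and hub markers 0, 0, 1 and 1 that rose and 3, 3, 3 and 2 that fell. Muscle sheath markers had 0, 0, 0 and 2 that rose and 0, 1, 0 and 0 that fell, and 1, 1, 4 and 2 of the 5 hemocyte markers rose and none fell. The part of these cell types in the results on replication genes was not tested. The transcript of *Set1* itself had log2 fold changes of -0.42 ± 0.26, -0.50 ± 0.21, -0.31 ± 0.19 and -0.26 ± 0.27 (SE), of which only that of day 1 passed the test (adjusted p = 0.0473). By staining, the authors reported a large drop of H3K4me3, the mark that Set1 writes, in early germ cells of *Set1* KD testes. The driver acts in those cells, whereas the libraries also held RNA of other cells. The part of this mixture in the *Set1* values was not tested.

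The origin recognition complex showed members moving in opposite directions. *Orc4*, from chromosome arm 2R, fell on all 4 days and *Orc1*, from the same arm, rose on days 1, 3 and 5, and both encode subunits of the one complex. Derived levels of *Orc4* were 148, 279.9, 310.5 and 271 normalized counts in *Set1* KD testes at days 0, 1, 3 and 5, against 471, 735, 743 and 544 in Ctrl KD testes. Its log2 fold change was -1.67 ± 0.22, -1.39 ± 0.18, -1.26 ± 0.17 and -1.01 ± 0.25 on these days (SE; adjusted p = 1.78e-11, 2.25e-12, 1.02e-11 and 0.000260). This was the ORC subunit with the highest level per length in Ctrl KD testes, and its level in *Set1* KD testes stayed below that of Ctrl KD testes on each day. *Orc1*, the largest subunit, had 58.2, 104, 181 and 155 normalized counts in *Set1* KD testes, against 40.5, 49.6, 59.6 and 48.1 in Ctrl KD testes. The corresponding log2 fold changes were 0.52 ± 0.48, 1.06 ± 0.28, 1.61 ± 0.29 and 1.68 ± 0.43 (adjusted p = 0.434, 0.00119, 1.68e-07 and 0.000415). *Orc1* was the subunit with the lowest level per length in Ctrl KD testes on all 4 days.

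Among the other subunits, *Orc6* rose at days 3 and 5. It had 28.0, 38.2, 82.1 and 62.9 normalized counts in *Set1* KD testes, against 20.0, 26.8, 35.9 and 29.8 in Ctrl KD testes, with log2 fold changes of 0.49 ± 0.49, 0.51 ± 0.44, 1.19 ± 0.35 and 1.08 ± 0.38 (adjusted p = 0.485, 0.384, 0.00209 and 0.0129). *Orc2* fell at day 0 alone (log2 fold change -0.84 ± 0.32, adjusted p = 0.0329), and *Orc5* passed the test on no day, with log2 fold changes between -0.50 and 0.24. Levels of the 5 listed subunits therefore lay closer together in *Set1* KD testes. Per kilobase of exon, the highest subunit stood 8.76, 8.15, 4.15 and 3.42 times above the lowest in *Set1* KD testes at days 0, 1, 3 and 5, against 22.7, 28.9, 24.3 and 22.1 times in Ctrl KD testes. At day 3 the subunits spanned 55.7 (*Orc2*) to 231 (*Orc5*) normalized counts per kilobase in *Set1* KD testes and 18.9 (*Orc1*) to 460.1 (*Orc4*) in Ctrl KD testes. These ratios are descriptions of derived levels, with no test.

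The licensing factors parted in the same way, with the loader *Cdc6* up and the inhibitor *geminin* down. *Cdc6* had 44.0, 70.3, 109 and 81.2 normalized counts in *Set1* KD testes at days 0, 1, 3 and 5, against 33.0, 34.1, 33.0 and 23.4 in Ctrl KD testes. Its log2 fold change was 0.42 ± 0.38, 1.04 ± 0.33, 1.72 ± 0.30 and 1.80 ± 0.35 (adjusted p = 0.434, 0.00778, 1.51e-07 and 3.27e-06), so that it rose on the last 3 of the 4 days. In contrast, *geminin* had 425, 628, 861 and 700.3 normalized counts in *Set1* KD testes, against 855, 1233, 1261 and 968 in Ctrl KD testes. It fell at days 0, 1 and 3, with log2 fold changes of -1.01 ± 0.22, -0.97 ± 0.22, -0.55 ± 0.18 and -0.47 ± 0.25 (adjusted p = 5.66e-05, 0.000115, 0.00471 and 0.111). The gene for their common partner Cdt1, *dup*, passed the test on no day, and its log2 fold changes lay between -0.56 and 0.21. Per kilobase, *geminin* stood 18.5 times above *Cdc6* in *Set1* KD testes at day 3 and 89.3 times above it in Ctrl KD testes.

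**Figure D3:**
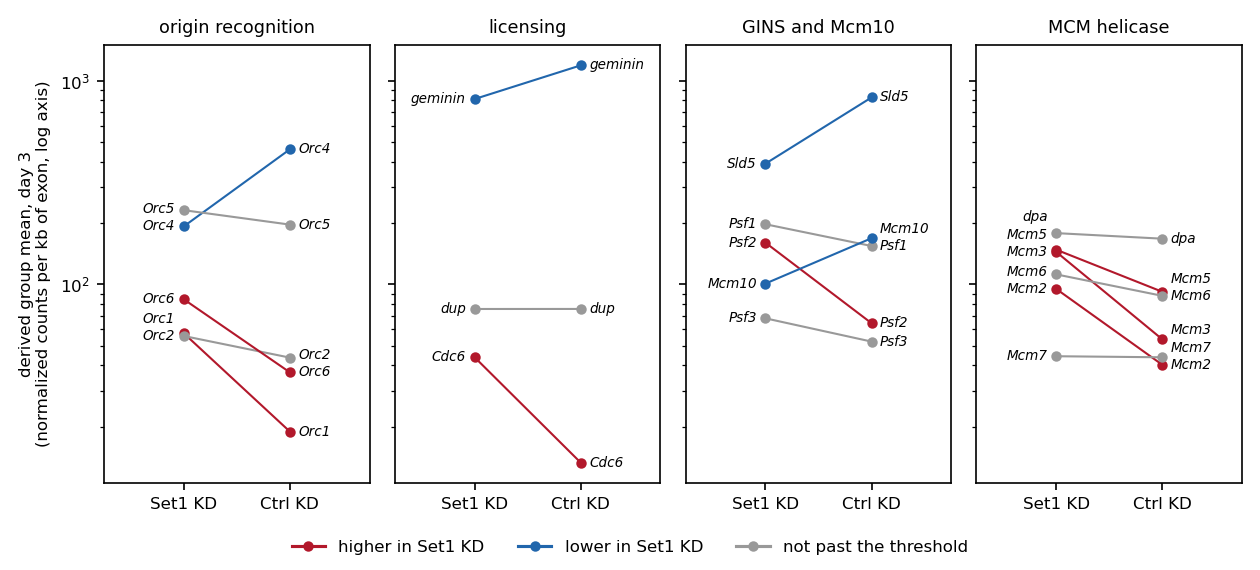
Points give the derived group mean at day 3 in normalized counts per kilobase of exon (log axis), with *Set1* KD on the left and Ctrl KD on the right of each panel and a line for each member, red where it rose, blue where it fell and grey where it did not pass the test. Lines converge toward *Set1* KD in origin recognition (55.7 to 231 in *Set1* KD, 18.9 to 460.1 in Ctrl KD), licensing and GINS with Mcm10, while the MCM subunits span 4.02 times in *Set1* KD and 4.16 times in Ctrl KD. Among roles not drawn, nucleotide supply spans 5.53 times in *Set1* KD and 16.6 times in Ctrl KD. The clamp and its loader span 6.47 and 6.60 times, and S phase entry 3.34 and 2.99 times.

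Of the 6 MCM subunits, which form a single ring, *Mcm3* and *Mcm2* were the clearest to rise. *Mcm3*, on the X chromosome between 5323855 and 5326738, rose on all 4 days. It had 99.2, 193, 396 and 247 normalized counts in *Set1* KD testes, against 58.4, 94.1, 147 and 108 in Ctrl KD testes, with log2 fold changes of 0.76 ± 0.31, 1.04 ± 0.30, 1.43 ± 0.23 and 1.19 ± 0.29 (adjusted p = 0.0454, 0.00325, 6.38e-09 and 0.000185). *Mcm2* rose only at days 3 and 5, with 108, 197, 275 and 216 normalized counts in *Set1* KD testes, against 97.7, 151, 117 and 93.7 in Ctrl KD testes. Its log2 fold change was 0.14 ± 0.32, 0.38 ± 0.22, 1.24 ± 0.21 and 1.20 ± 0.30 (adjusted p = 0.777, 0.182, 3.82e-08 and 0.000340). Counts were normalized within each day, so that levels were set side by side between the groups of a day and not between days.

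The fly *Mcm4* gene, *dpa*, behaved otherwise, as it fell at days 0 and 1 and not afterwards. It had 242, 375, 548 and 393 normalized counts in *Set1* KD testes, against 363, 570.4, 514 and 384 in Ctrl KD testes, and log2 fold changes of -0.59 ± 0.23, -0.61 ± 0.18, 0.09 ± 0.18 and 0.03 ± 0.22 (adjusted p = 0.0367, 0.00374, 0.674 and 0.909). *Mcm5* rose at day 3 alone (log2 fold change 0.69 ± 0.20, adjusted p = 0.00162). *Mcm6* and *Mcm7* passed the test on no day. *Mcm7* was the lowest of the ring at days 3 and 5 by log2 fold change (0.02 ± 0.25 and -0.23 ± 0.34), and 81.7% of its exon length is shared with an antisense RNA gene, so that its counts may hold reads of both genes. The summed level of the ring per kilobase was 287, 463, 722 and 518 in *Set1* KD testes and 319, 491, 485 and 374 in Ctrl KD testes. The lower sums of *Set1* KD testes at days 0 and 1 came with *dpa*, which had 78.8 and 122 per kilobase in *Set1* KD testes and 118 and 186 in Ctrl KD testes, while the median log2 fold change of the 6 subunits was 0.00, -0.03, 0.52 and 0.45.

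GINS, a ring of 4 subunits that joins the helicase, also moved unevenly. *Psf2* (arm 2L, 4386182 to 4387356) rose at days 1, 3 and 5, with 57.2, 82.2, 139 and 119 normalized counts in *Set1* KD testes, against 30.7, 44.0, 55.9 and 34.6 in Ctrl KD testes. Its log2 fold changes were 0.90 ± 0.38, 0.90 ± 0.34, 1.32 ± 0.28 and 1.79 ± 0.36 (adjusted p = 0.0593, 0.0312, 1.11e-05 and 5.42e-06). Its partner *Sld5* fell on every one of the 4 days. *Sld5* had 175, 240.2, 302 and 295 normalized counts in *Set1* KD testes, against 348, 469, 639 and 464 in Ctrl KD testes, with log2 fold changes of -0.99 ± 0.22, -0.96 ± 0.21, -1.08 ± 0.19 and -0.65 ± 0.25 (adjusted p = 0.000129, 4.92e-05, 2.44e-07 and 0.0195). *Psf3* rose at day 5 alone (log2 fold change 0.59 ± 0.26, adjusted p = 0.0479), and shares 34.9% of its exon length with the gene *CG17841*, and *Psf1* passed the test on no day (log2 fold changes between 0.08 and 0.36).

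*Mcm10*, a scaffold that helps activate the helicase and is not part of the MCM ring, had the lowest log2 fold change of all members at days 0 and 1. It lies on arm 2L between 21179933 and 21182812 and shares 13.0% of its exon length with *Ret*. Its level was 146, 248, 284 and 199 normalized counts in *Set1* KD testes, against 468, 692, 475 and 352 in Ctrl KD testes. The log2 fold change was -1.69 ± 0.27, -1.48 ± 0.23, -0.74 ± 0.20 and -0.82 ± 0.26 (adjusted p = 1.92e-08, 4.05e-09, 0.000522 and 0.00456). *Mcm10* thus fell on all 4 days and passed the stricter rule only on days 0 and 1. Across GINS and *Mcm10*, the highest level per kilobase exceeded the lowest 5.03, 5.99, 5.74 and 6.53 times in *Set1* KD testes and 14.2, 15.7, 15.8 and 15.5 times in Ctrl KD testes.

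The sliding clamp and its loader gave calls in both directions as well. *PCNA*, the clamp that tethers DNA polymerase, rose at days 3 and 5. It had 387, 642, 924 and 730.5 normalized counts in *Set1* KD testes, against 396, 527, 589.8 and 379 in Ctrl KD testes, with log2 fold changes of -0.03 ± 0.26, 0.28 ± 0.20, 0.65 ± 0.17 and 0.95 ± 0.32 (adjusted p = 0.943, 0.277, 0.000688 and 0.00813). The second clamp gene, *PCNA2*, fell at day 3 alone (log2 fold change -0.63 ± 0.20, adjusted p = 0.00382), and its log2 fold changes were negative on the other days too, between -0.62 and -0.33.

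Within the loader, the large subunit *Gnf1* fell while the small subunits *RfC4* and *RfC38* rose. *Gnf1*, at 677, 1069, 1046 and 1026 normalized counts in *Set1* KD testes and 1466, 2027, 1710.4 and 1529.8 in Ctrl KD testes, fell on all 4 days. Its log2 fold changes were -1.11 ± 0.24, -0.92 ± 0.22, -0.71 ± 0.19 and -0.58 ± 0.24 (adjusted p = 3.73e-05, 0.000338, 0.000590 and 0.0356). *RfC4* had 84.7, 128, 291 and 218 normalized counts in *Set1* KD testes, against 65.8, 98.3, 121 and 94.4 in Ctrl KD testes. It rose at days 3 and 5 only, with log2 fold changes of 0.36 ± 0.28, 0.38 ± 0.24, 1.27 ± 0.22 and 1.21 ± 0.31 (adjusted p = 0.343, 0.211, 8.65e-08 and 0.000521). *RfC38* followed the same days, with 75.2, 114, 214 and 172 normalized counts in *Set1* KD testes, against 92.2, 123, 134 and 93.5 in Ctrl KD testes. Its log2 fold changes were -0.30 ± 0.30, -0.11 ± 0.26, 0.68 ± 0.22 and 0.88 ± 0.30 (adjusted p = 0.489, 0.774, 0.00604 and 0.00970), and 25.2% of its exon length is shared with *Nup160*. *RfC3* passed the test on no day (log2 fold changes between -0.21 and -0.02). *Fen1*, the nuclease that trims Okazaki fragments, passed it on none either, with log2 fold changes between -0.25 and 0.46.

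Of the 4 genes of nucleotide supply, 3 had positive log2 fold changes on all days. Both subunits of ribonucleotide reductase, which makes deoxynucleotides, rose. *RnrS*, the small subunit, rose by nearly the same amount on each day, with 424, 637, 752 and 577 normalized counts in *Set1* KD testes, against 204, 279.6, 333 and 258 in Ctrl KD testes. Its log2 fold change was 1.05 ± 0.22, 1.19 ± 0.19, 1.17 ± 0.18 and 1.16 ± 0.23 (adjusted p = 2.85e-05, 7.19e-09, 9.13e-10 and 5.32e-06). *RnrL*, the large subunit (arm 2L, 10325026 to 10327943), had 66.4, 112, 219.9 and 152 normalized counts in *Set1* KD testes, against 37.1, 51.0, 51.6 and 48.4 in Ctrl KD testes. It passed the test from day 1 on, with log2 fold changes of 0.84 ± 0.37, 1.14 ± 0.35, 2.09 ± 0.27 and 1.65 ± 0.35 (adjusted p = 0.0705, 0.00566, 1.44e-13 and 1.97e-05), the smallest adjusted p of any member on any day being that of day 3.

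*Ts*, thymidylate synthase, rose on all 4 days and had its largest change at day 0. It had 189, 229.6, 238 and 191 normalized counts in *Set1* KD testes, against 85.3, 147, 146 and 117 in Ctrl KD testes, with log2 fold changes of 1.15 ± 0.25, 0.64 ± 0.21, 0.70 ± 0.25 and 0.71 ± 0.25 (adjusted p = 5.1e-05, 0.00983, 0.00946 and 0.0137). *Ts* shares 10.5% of its exon length with *Rbp9*. The salvage enzyme *dnk*, a deoxynucleoside kinase that recycles nucleosides, went the other way and fell at days 1, 3 and 5. Its level was 182, 236, 336 and 312 normalized counts in *Set1* KD testes, against 208, 339, 462 and 431 in Ctrl KD testes, with log2 fold changes of -0.19 ± 0.23, -0.53 ± 0.19, -0.46 ± 0.18 and -0.46 ± 0.21 (adjusted p = 0.579, 0.0224, 0.0193 and 0.04996). The call of *dnk* at day 5 was lost when the log2 fold changes of that day were centred on their median (adjusted p = 0.0605).

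The 4 regulators of S phase entry had log2 fold changes between -0.68 and 0.72 over the 4 days. *E2f1* rose at days 0, 1 and 3, with 531, 691, 916 and 752 normalized counts in *Set1* KD testes, against 328, 447, 622 and 554 in Ctrl KD testes. Its log2 fold change was 0.69 ± 0.19, 0.63 ± 0.18, 0.56 ± 0.18 and 0.44 ± 0.21 (adjusted p = 0.00185, 0.00245, 0.00600 and 0.0619). The partner *Dp* rose at days 3 and 5, with 416, 561, 706 and 556 normalized counts in *Set1* KD testes, against 297, 426, 449 and 343 in Ctrl KD testes, and log2 fold changes of 0.49 ± 0.22, 0.40 ± 0.17, 0.65 ± 0.18 and 0.70 ± 0.21 (adjusted p = 0.0751, 0.0645, 0.00104 and 0.00262). Their opponent *Rbf*, the fly retinoblastoma gene, rose along with them. *Rbf* had 915, 1248, 1719 and 1279 normalized counts in *Set1* KD testes, against 741, 934, 1045 and 885 in Ctrl KD testes, and log2 fold changes of 0.30 ± 0.22, 0.42 ± 0.17, 0.72 ± 0.17 and 0.53 ± 0.18 (adjusted p = 0.294, 0.0433, 8.6e-05 and 0.00986). *CycE* fell at day 0 alone (log2 fold change -0.68 ± 0.23, adjusted p = 0.0165), with log2 fold changes between -0.52 and -0.33 on the other days.

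*Claspin*, an adaptor that links stalled forks to the checkpoint kinase, had the largest log2 fold change of all members on every day. The gene lies on arm 3L between 4313483 and 4318608. It was also the member with the lowest counts, with 27.1, 30.4, 93.7 and 67.5 normalized counts in *Set1* KD testes, against 9.61, 4.70, 11.1 and 12.1 in Ctrl KD testes. The log2 fold change was 1.50 ± 0.62, 2.70 ± 0.66, 3.08 ± 0.45 and 2.48 ± 0.49 (adjusted p = 0.0522, 0.000359, 1.23e-10 and 4.4e-06), with 95% intervals of 1.41 to 3.99 at day 1 and 2.20 to 3.95 at day 3. Its SE was the widest among the members on all 4 days, and its level in Ctrl KD testes was at most 12.1 normalized counts.

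**Figure D4:**
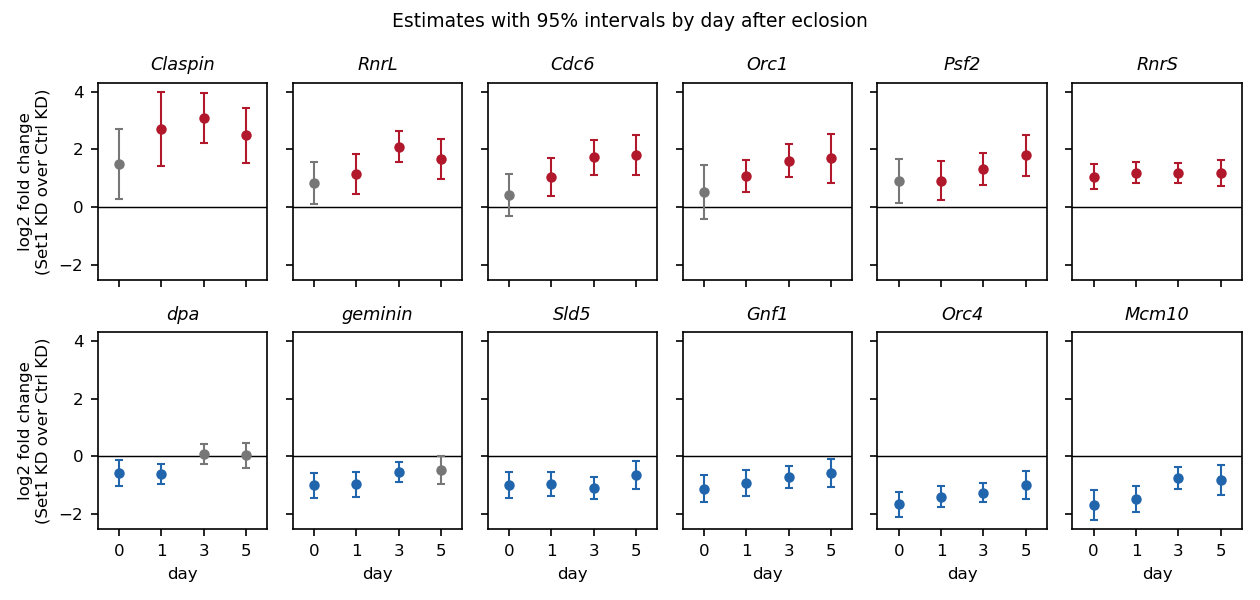
Points give the log2 fold change (*Set1* KD over Ctrl KD) and its 95% interval for 12 members by day after eclosion, red where the member rose, blue where it fell and grey where it did not pass the test. The 6 members of the upper row lie above 0 on every day and reach 3.08 (*Claspin*, day 3). In the lower row *dpa* lies near 0 at days 3 and 5, and *Orc4* and *Mcm10* lie below it on each day. No member differed between days after adjustment.

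The change of each member was then compared between days, which share no library. In tests of the difference between 2 log2 fold changes, adjusted over all genes on both days, 0 of the 35 members differed in any of the 6 pairs of days. Over all genes, the share that differed was 0% for day 1 against day 0, 1.9% for day 3 against day 0, 4.24% for day 5 against day 0, 0.363% for day 3 against day 1, 2.04% for day 5 against day 1, and 0% for day 5 against day 3. In the same normal test at an unadjusted p under 0.05, 0, 12, 8, 8, 6 and 0 of the 35 members differed in these pairs. All of them had a higher log2 fold change on the later day. Over all genes, 1.10%, 17.5%, 22.4%, 14.6%, 18.8% and 2.54% differed in either direction, and increases were not counted apart. For day 5 against day 0 and against day 1, the share of members that differed was close to that of all genes. The smallest adjusted p was that of *Orc2* between days 5 and 0, with a difference of 1.37 ± 0.48 (SE, adjusted p = 0.0715), followed by *RfC38* at 1.17 ± 0.42 (adjusted p = 0.0815) and *Cdc6* at 1.38 ± 0.52 (adjusted p = 0.0924) in the same pair. Between days 3 and 0 the smallest was again that of *Orc2*, with a difference of 1.20 ± 0.41 (adjusted p = 0.0953). It was followed by *Mcm2* at 1.10 ± 0.38 (adjusted p = 0.0986) and *Mcm10* at 0.94 ± 0.33 (adjusted p = 0.104).

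Although no single member passed, most estimates lay higher on the later days. From day 0 to day 5 the log2 fold change was higher in 31 of 35 members, with a median difference of 0.60, where 50.8% of all genes were higher and the median difference over all genes was 0.02. The corresponding values from day 0 to day 3 were 28 of 35 members and 0.46, beside 50.9% and 0.01 over all genes, and from day 3 to day 5 they were 19 of 35 and 0.02. The members ranked much alike on each day, as Pearson's r of their log2 fold changes was 0.83 between days 5 and 0 and 0.97 between days 5 and 3. Each r is a description over the 35 members, which share the libraries of a day, and no test was made of it.

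**Figure D5:**
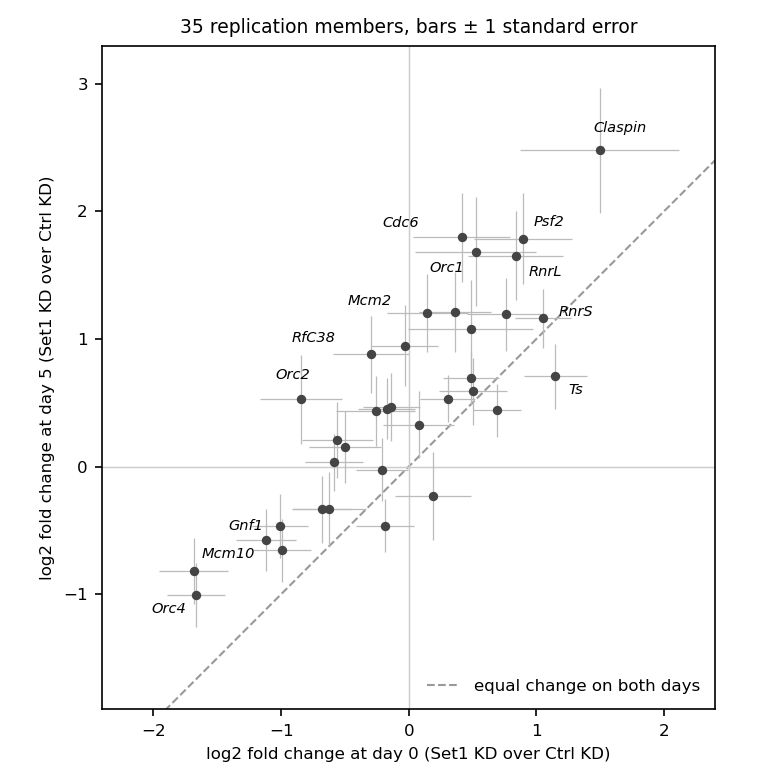
Each point is 1 of the 35 members, with its log2 fold change (*Set1* KD over Ctrl KD) at day 5 on the vertical axis and at day 0 on the horizontal axis, and bars of 1 SE. Of the 35 points, 31 lie above the dashed line of equal change, *Orc2* by 1.37, and those at the lower left (*Mcm10* and *Orc4*) stay below 0 on both days.

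By their medians, members that fell had the higher derived levels in Ctrl KD testes. At a given mean count, a fall itself gives a higher derived level in Ctrl KD testes. Among the 10 members that were lower on at least 1 day and higher on none, the median derived level at day 3 was 185 normalized counts per kilobase in *Set1* KD testes and 304 in Ctrl KD testes. For the 18 that were higher on at least 1 day and lower on none, it was 143 in *Set1* KD testes and 73.9 in Ctrl KD testes. The ranges overlapped, as in Ctrl KD testes the 10 spanned 43.6 to 1188 and the 18 spanned 2.32 to 551. Because a derived level and the fold change of a day come from the same fit, levels were also taken from another day. The mean level of both groups together per kilobase at day 0 and the log2 fold change at day 3 had a Spearman's rho of -0.64 over the 35 members. With levels that were not divided by length, rho was -0.60 over the members and -0.33 over 12470 genes. These are descriptions across genes, which are not independent replicates.

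A wider list of 47 replication genes, of which 45 were listed, also held genes of both directions. It had 3, 5, 16 and 15 higher and 10, 7, 9 and 6 lower genes at days 0, 1, 3 and 5, and its median log2 fold change was -0.19, -0.11, 0.23 and 0.31. The higher genes made up 6.67%, 11.1%, 35.6% and 33.3% of the list, against 14.7%, 15.2%, 28.9% and 24.4% of all genes, and the lower ones 22.2%, 15.6%, 20% and 13.3%, against 15.7%, 17.6%, 28% and 25.6%. *Caf1-180*, the large subunit of chromatin assembly factor 1, which places new histones behind the fork, had 35.95, 59.1, 123 and 114 normalized counts in *Set1* KD testes, against 20.5, 21.0, 22.3 and 14.1 in Ctrl KD testes. Its log2 fold change reached 3.02 ± 0.42 at day 5 (adjusted p = 4.8e-11). *asf1*, another histone chaperone, rose on all 4 days, with log2 fold changes of 0.77 ± 0.23, 0.60 ± 0.19, 1.31 ± 0.22 and 1.33 ± 0.27 (adjusted p = 0.00460, 0.00690, 5.16e-08 and 6.78e-06).

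*Rif1*, a regulator of replication timing, rose from day 1 on, to 132 normalized counts in *Set1* KD testes at day 3, against 42.4 in Ctrl KD testes (log2 fold change 1.64 ± 0.28, adjusted p = 3.53e-08). *PolE1*, the catalytic subunit of DNA polymerase epsilon, rose on the same days, with 127 normalized counts in *Set1* KD testes at day 5, against 40.0 in Ctrl KD testes (log2 fold change 1.66 ± 0.31, adjusted p = 9.64e-07). The 10 genes of replicative polymerases and primase as a group had 0, 1, 3 and 3 higher and 4, 2, 2 and 1 lower at days 0, 1, 3 and 5. Of the 14 genes of the fork and of ligation, 1, 0, 5 and 4 were higher and 3, 3, 3 and 2 lower. The higher genes were thus 0%, 10%, 30% and 30% of the polymerase and primase group. They were 7.14%, 0%, 35.7% and 28.6% of the fork and ligation group, beside 14.7%, 15.2%, 28.9% and 24.4% of all genes. The lower genes were 40%, 20%, 20% and 10% of the first group and 21.4%, 21.4%, 21.4% and 14.3% of the second. Over all genes, 15.7%, 17.6%, 28% and 25.6% were lower.

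Genes of mitosis, set beside those of replication as another part of the cell cycle machinery, had more members that fell than rose. Of 31 listed mitotic genes, 0, 1, 1 and 1 were higher and 8, 8, 18 and 6 were lower at days 0, 1, 3 and 5, and their median log2 fold change was -0.41, -0.27, -0.51 and -0.26. The higher genes made up 0%, 3.23%, 3.23% and 3.23% of the list, against 14.7%, 15.2%, 28.9% and 24.4% of all genes. The lower genes made up 25.8%, 25.8%, 58.1% and 19.4% of the list, against 15.7%, 17.6%, 28% and 25.6% of all genes. This lower share was above that of all genes at days 0, 1 and 3 and below it at day 5. The kinesin gene *cmet* (CENP-meta) had 2965, 3115, 2354 and 2102 normalized counts in *Set1* KD testes, against 4529, 5926, 5147 and 5033 in Ctrl KD testes, and fell on all 4 days. *borr*, of the chromosomal passenger complex, and *CycB3*, a mitotic cyclin, fell on all 4 days too, with log2 fold changes of -1.06 ± 0.21 and -1.31 ± 0.27 at day 3 (adjusted p = 1.88e-06 and 6.21e-06). *aurA*, the Aurora A kinase, and *CycB*, Cyclin B, fell at days 3 and 5, with log2 fold changes of -1.07 ± 0.19 and -1.02 ± 0.21 at day 3 (adjusted p = 1.32e-07 and 1.24e-05). Many mitotic genes are also used in meiosis by spermatocytes, and 4, 5, 7 and 3 of the 9 spermatocyte genes fell on these days, with a median log2 fold change of -0.57, -0.56, -0.79 and -0.23. The part of spermatocytes in the values of mitotic genes was not tested. At day 3, 17 of 35 replication members (48.6%) and 1 of 31 mitotic genes (3.23%) were higher in *Set1* KD testes, beside 28.9% of all genes. No test was made of the difference between the lists, which were chosen with earlier results of these data known.

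The members lie on 5 chromosome arms, 9 on 2L, 10 on 2R, 5 on 3L, 7 on 3R and 4 on X. Of the 35, 5 share at least 10% of their exon length with another gene (*Mcm7*, *Mcm10*, *RfC38*, *Psf3* and *Ts*), and the strand setting of the counting is not given in the sources used here, so that their counts may include reads of the neighbour.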

How the data were processed

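Poly(A) RNA of 24 testis libraries (3 per group and day) was sequenced from a directional kit. Per their methods, the authors mapped reads to dm6 with Bowtie2 2.5.1, counted them on genes with featureCounts and ran DESeq2 for each day. The 4 deposited tables hold, as made by the authors, the mean normalized count of the 6 libraries (a signal per gene), the log2 fold change with its standard error, the Wald statistic (a score), and a raw p-value beside 1 adjusted by the Benjamini-Hochberg method. These deposited columns are the authors' own comparison and served as the test here, where no values per library were used. The labels call the control genotype WT, and its titles name mCherry.

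Group means were derived as Ctrl KD = 2 × mean / (1 + fold) and Set1 KD = Ctrl KD × fold, and divided by the union exon length of Ensembl release 115 (dm6). Changes were compared between days by a 2-sided normal test of the difference of the log2 fold changes, with Benjamini-Hochberg adjustment over all genes listed on both days (scipy 1.17.1 with numpy 2.4.6 and pandas 2.3.3 under Python 3.11.15; figures with matplotlib 3.10.9). The scripts were tested on simulated data. Members and lists were chosen with earlier results of these data known. Members called on 2 or more days, or past both criteria on any day, were given values on all 4 days; other members were given by range and counts, and of each other list the 5 genes with the smallest adjusted p were named, except 1 that is not reported here. Of the list genes, 12 were matched under another symbol and 4 were not listed. Alternatives were an adjusted p under 0.01, the cutoff of 1.3, centring on the median log2 fold change (genes with a mean of 10 or more), a mean of 50 or more, and t distributions with 4 or 8 degrees of freedom. Promoter and protein sequences were not used here.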

Additional observations from a re-analysis of the deposited data

How the results depend on the processing

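No paired analysis was possible because the values used here are 1 comparison per day and not values per library, so the fit with a replicate block and the fits that leave out a library were not run. Centring the log2 fold changes shifted them by at most 0.02, left the counts of members higher at 4, 10, 17 and 16 on days 0, 1, 3 and 5, and changed 1 of 140 calls of a member on a day, that of *dnk* at day 5. The same centring, applied after seeing the data to the members past both criteria, left 2, 3, 6 and 5. Requiring a mean normalized count of at least 50 changed 0 of 131 calls. At an adjusted p under 0.01, 5 members were lower at day 0 and 2 at day 5, and all other counts stayed within 1.5 times those at 0.05. With the cutoff of 1.3 added, 0, 1, 6 and 5 members were higher and 2, 2, 0 and 0 lower on days 0, 1, 3 and 5. With a t distribution of 4 degrees of freedom in place of the normal one, 9 members were higher and 2 lower at day 3, beside 8.65% and 10.9% of all genes. With it, 0 members were higher and 0 lower at days 0, 1 and 5, where 0 of all genes passed either. By that t test at an unadjusted p under 0.05, 3, 8 and 15 members were higher and 6, 6 and 2 were lower on these 3 days. The share of all genes at that unadjusted threshold was not counted. Among these settings only centring alters a log2 fold change, so only it could reverse a direction, and it reversed none. Of the 140 calls of a member on a day, 63 changed under the t distribution and 58 with the cutoff added. In the tests between days, 0 members differed for day 5 or day 3 against day 0 under centring, the mean of at least 50 and a t distribution of 8 degrees of freedom. The precision of each value is limited by 3 libraries per group, and members under 50 normalized counts, such as *Claspin* and *Orc6* at day 0, have the widest errors.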
